A study of Mus musculus with 12 samples.

Results

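The hearts of mice given busulfan and then alginate oligosaccharides (AOS) were compared with the hearts of untreated mice, gene by gene, by RNA sequencing. The comparison takes 6 of the 12 libraries of the series, 3 of each group, and all 12 enter the fit. Mice of the busulfan plus AOS group received busulfan once at 40 mg/kg and then AOS at 10 mg/kg for 5 weeks. Control mice received neither. The other groups of the series, used here only for values set beside the comparison, were busulfan alone (40 mg/kg once, 3 libraries) and AOS alone (10 mg/kg for 5 weeks, 3 libraries). The strain is labelled IRC mouse in every sample, with no age. The tissue label reads Cells, but the extraction protocol and the title name the heart, and the RNA was total RNA. Nothing in the labels ties each library to its own animal, and the p-values below therefore rest on differences among libraries that may be technical. A group that differs from control by both agents cannot assign a difference to either of them.

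Library totals were between 9929772 and 13620815 estimated counts, and 14687 of 19246 genes had enough counts to be tested. Levels are given as FPKM (fragments per kilobase of gene, scaled to library size). The 12 ventricular muscle markers summed to between 24944 and 66917 FPKM in the 6 libraries compared, but the sum of 14 atrial markers varied widely, at 16286, 3709.6 and 9274 with busulfan plus AOS and 549.8, 8935 and 815 in controls. Genes of lung airway, liver and blood were high in single libraries. In replicate 1 of busulfan plus AOS 11 genes stood apart in this way, and replicate 2 held a median of 6.36% of their level. Replicate 2 had 12 such genes, with a median of 19.1% of their level in replicate 3, and replicate 3 had 3, with 10.1% in replicate 1. Control replicate 2 had 2 such genes, with 8.71% of their level in replicate 3. Counts were scaled with TMM factors, which lay between 1.04 and 1.11 for busulfan plus AOS and between 0.889 and 0.975 for control. The median log2 fold change of all genes was 0.04 on this scale, 0.23 with library totals and 0.21 in FPKM as deposited. FPKM values below are as deposited, and log2 fold changes are on the TMM scale.

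Busulfan is an alkylating drug that crosslinks DNA and is used to deplete blood and germ cells. DNA damage activates p53, a transcription factor that switches on genes of cell cycle arrest, repair and cell death. AOS are short sugar chains cut from the alginate of brown algae. In the endoplasmic reticulum (ER), chaperones fold secreted and membrane proteins. When unfolded proteins build up there, the unfolded protein response raises those chaperones through transcription factors that include XBP1. Interferons switch on antiviral and antigen presentation genes. The heart muscle cell itself is built around mitochondria and sarcomeres.

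Of the 14687 genes tested, 45 passed the Benjamini-Hochberg threshold of 0.05 in edgeR's quasi-likelihood test, or 0.306%. Of these, 38 rose (0.259% of genes tested) and 7 fell (0.0477%), of which 1 is an unnamed gene model. Adjusted p-values lay between 0.0134 and 0.0494, and the log2 fold changes of the higher genes between 0.47 and 4.33. Each of the 45 had all 3 busulfan plus AOS libraries on one side of all 3 control libraries in FPKM, as did 30.5% of genes tested on the higher side and 10.7% on the lower side. In TMM-scaled CPM (counts scaled to library size) these shares were 20.1% and 20%. At an unadjusted p under 0.05 there were 4815 genes (32.8%), 2458 higher (16.7%) and 2357 lower (16%). The log2 fold change was above 0 in 53% of all genes and below 0 in 47%. With library totals in place of TMM the split at that p was 3805 higher and 1101 lower. DESeq2 called 1245 genes higher (8.67% of 14358) and 1108 lower (7.72%), with all 45 among them. The genes that rose included 7 of the ER chaperone list, 2 p53 targets and 2 proteins that fold or modify collagen. They also included single genes of the interferon and chemokine lists and regulators of vesicle traffic and transcription. In 24 of the 45 the mean was under 10 FPKM in both groups.

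**Figure D1:**
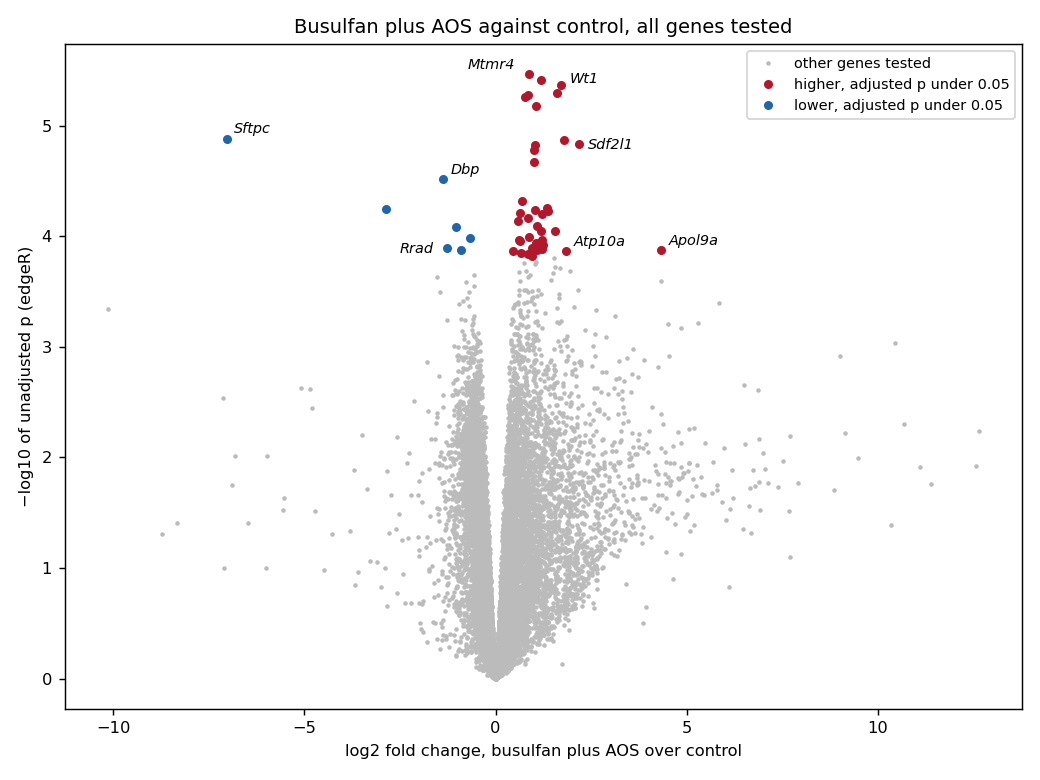
Log2 fold change of busulfan plus AOS over control (x axis) against −log10 of the unadjusted edgeR p (y axis) for the 14687 genes tested. The 38 genes that rose are in red and the 7 that fell in blue. Many genes with larger fold changes lie below them, among genes that did not pass.

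The p53 targets Zmat3 and Eda2r rose with adjusted p-values well below most of the other genes called. Zmat3 (gene 22401, chromosome 3, 32334792 to 32365665, GRCm38), which encodes an RNA-binding zinc finger protein, was at 3.33, 2.99 and 3.25 FPKM in busulfan plus AOS hearts, against 1.04, 1.53 and 1.12 in control hearts (log2 fold change 1.19 ± 0.14 SE, adjusted p = 0.0134). The lowest treated library lay just under 2 times as high as the highest control. Eda2r (gene 245527, chromosome X, 97333837 to 97377234), the cell surface receptor of ectodysplasin A2, was at 2.92, 4.16 and 2.8 FPKM in busulfan plus AOS hearts, against 0.7, 0.59 and 1.31 in control hearts (log2 fold change 1.78 ± 0.24 SE, adjusted p = 0.02). Of 29 tested p53 targets these were the 2 that rose, and none fell. At an unadjusted p under 0.05 the list had 10 higher and 5 lower members, where 16.7% of all genes were higher and 16% lower. Its median log2 fold change was 0.32. Sesn2, a stress-induced brake on mTORC1, had 2.73, 2.89 and 3.03 FPKM with busulfan plus AOS and 0.88, 1.27 and 1.21 in controls (log2 fold change 1.18 ± 0.23, adjusted p = 0.0654). Phlda3, an inhibitor of Akt, had 20.6, 13.4 and 23.1 FPKM with busulfan plus AOS and 2.96, 6.6 and 3.27 in controls (log2 fold change 1.97 ± 0.52, adjusted p = 0.0818). Both missed the threshold. Their groups did not overlap, as was so for 30.5% of genes tested on the higher side in FPKM. Trp53inp1, an autophagy and stress gene, was at a log2 fold change of 0.99 ± 0.19 (adjusted p = 0.0659), and the translesion DNA polymerase gene Polk was at a log2 fold change of 0.54 ± 0.14 (adjusted p = 0.0787). Perp, a desmosome and cell death gene, was lower at a log2 fold change of -0.62 ± 0.18 (adjusted p = 0.0857). Cdkn1a, which encodes the cell cycle inhibitor p21 and is named here though it falls outside the rule for named genes, was at 40, 34.2 and 4.22 FPKM with busulfan plus AOS and 15.2, 7.34 and 7.76 in controls. Its groups overlapped (log2 fold change 1.17 ± 0.65, adjusted p = 0.224).

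**Figure D2:**
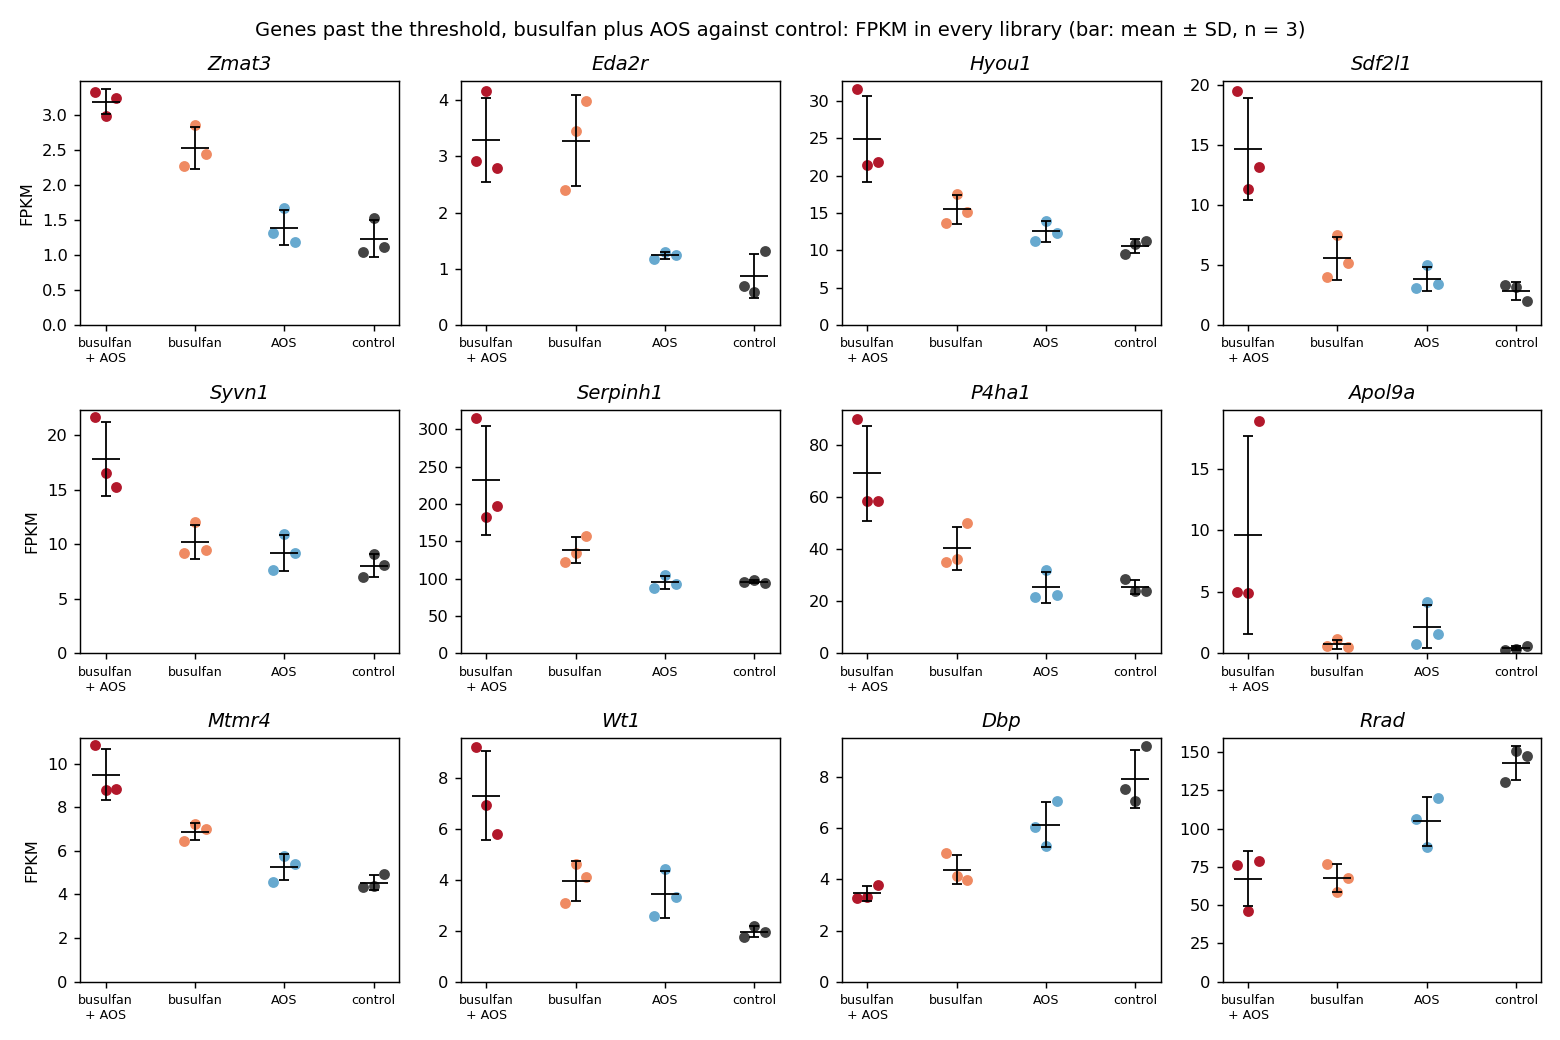
FPKM of 12 genes past the threshold in every library, with busulfan plus AOS at the left, then busulfan, AOS and control. Points are libraries and bars the mean ± SD of 3. In each panel the busulfan plus AOS points lie wholly above the control points, except for Dbp and Rrad, where they lie wholly below.

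ER proteins made up the largest group of genes past the threshold that shared a list. Of 29 tested members of the ER chaperone and unfolded protein response list, 7 rose and none fell, 20 were higher and none lower at an unadjusted p under 0.05, and 27 had a higher mean. The median log2 fold change was 0.54, against 0.04 for all genes. Hyou1 (gene 12282, chromosome 9, 44379490 to 44392369), a large ER chaperone related to Hsp70, was at 31.6, 21.4 and 21.8 FPKM in busulfan plus AOS hearts, against 9.45, 10.9 and 11.2 in control hearts (log2 fold change 1.06 ± 0.13 SE, adjusted p = 0.0139). Sdf2l1 (gene 64136, chromosome 16, 17130138 to 17132383), a cofactor of the chaperone BiP, was at 19.4, 11.3 and 13.1 FPKM in busulfan plus AOS hearts, against 3.33, 3.12 and 2 in control hearts (log2 fold change 2.18 ± 0.29 SE, adjusted p = 0.02). Its lowest treated library was more than 3 times its highest control. Syvn1 (gene 74126, chromosome 19, 6046576 to 6053718), the ubiquitin ligase that marks misfolded ER proteins for degradation, was at 21.6, 16.6 and 15.3 FPKM in busulfan plus AOS hearts, against 6.98, 9.12 and 8.06 in control hearts (log2 fold change 1.03 ± 0.14 SE, adjusted p = 0.02). In all 3 genes replicate 1 of busulfan plus AOS was the highest library.

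The disulfide isomerase gene Pdia4 was at 45.2, 27.6 and 30.6 FPKM in busulfan plus AOS hearts, against 12.9, 13.8 and 12.3 in control hearts (log2 fold change 1.21 ± 0.19 SE, adjusted p = 0.044). Xbp1, the transcription factor of the response, was at 64.8, 48.3 and 53.7 FPKM in busulfan plus AOS hearts, against 27.3, 30.1 and 26.4 in control hearts (log2 fold change 0.85 ± 0.14 SE, adjusted p = 0.0462). The table gives 1 value per gene, so the spliced and unspliced forms of Xbp1 cannot be told apart. Manf, a secreted protein induced by ER stress, was at 53, 34.6 and 43 FPKM in busulfan plus AOS hearts, against 18.3, 22.1 and 16 in control hearts (log2 fold change 1.05 ± 0.18 SE, adjusted p = 0.0479). Calr, the calcium-binding lectin chaperone calreticulin, was the most abundant of the 7 at 330.0, 267 and 315 FPKM in busulfan plus AOS hearts, against 170.5, 177 and 161 in control hearts (log2 fold change 0.65 ± 0.11 SE, adjusted p = 0.048). Its fold was the smallest of the 7, with controls that differed little among themselves. Creld2, an ER-resident protein with epidermal growth factor-like repeats, fell just outside the threshold at 32.4, 19.4 and 19.4 FPKM with busulfan plus AOS and 11.1, 9.62 and 9.35 in controls (log2 fold change 1.05 ± 0.19, adjusted p = 0.053). The summed FPKM of the 30 members of the list was 2477, 1956 and 2098 with busulfan plus AOS and 1335, 1401 and 1303 in controls. Without replicate 1 of busulfan plus AOS 16 members were higher at an unadjusted p under 0.05, and the list median was 0.46. Of all genes 1597 were higher at that p without that library, against 2458 with it. With the level of adipocyte markers as a covariate 13 of the list and 491 of all genes were higher, and the list median was 0.38. Summed, those markers were at 1932 to 3280 FPKM with busulfan plus AOS and 1122 to 1375 in controls, most of it from Fabp4, also an endothelial marker. Such a fit, here and below, therefore cannot separate them from the treatments.

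The unfolded protein response acts on promoters through the ER stress element, spelled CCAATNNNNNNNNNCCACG. It was searched on both strands in the 300 bases from 250 before to 50 after each RefSeq start site (GRCm38.p6). Of 11194 tested genes with such a window, 18 held it, or 0.161%. Of 26 tested ER list members with a window, 8 held it, or 30.8%. List and element were both chosen for the same response, so this share describes promoters and not these hearts. The 8 that held it were Calr, Syvn1, Creld2, Hspa5, Hsp90b1, Pdia6, Dnajc3 and Canx. Their median log2 fold change was 0.64, against 0.45 for the members with a window that lacked it. Over all 18 genes with the element, 12 were higher and none lower at an unadjusted p under 0.05 (66.7%, against 16.4% of all genes with a window), and the median was 0.58. The 8 list members are among the 18 and supplied 7 of the 12, so this count is not separate from theirs. Dnajc3 was at a log2 fold change of 0.86 ± 0.19 (adjusted p = 0.0736), Pdia6 at a log2 fold change of 0.63 ± 0.11 (adjusted p = 0.0569), Hsp90b1 at a log2 fold change of 0.54 ± 0.12 (adjusted p = 0.0736) and Hspa5, which encodes BiP, at a log2 fold change of 0.53 ± 0.19 (adjusted p = 0.101). Canx, the membrane-bound partner of calreticulin, was at a log2 fold change of 0.14 ± 0.13 (adjusted p = 0.441). The windows of the 2 genes past the threshold that hold the element, and of Creld2, are printed 5′ to 3′ on the strand of the gene. Capitals mark the element, which reads in reverse complement in Calr and Creld2. The Calr window is chr8:84846882-84847181, minus strand. The Syvn1 window is chr19:6046326-6046625, plus strand. The Creld2 window is chr15:88819396-88819695, plus strand.
Calr: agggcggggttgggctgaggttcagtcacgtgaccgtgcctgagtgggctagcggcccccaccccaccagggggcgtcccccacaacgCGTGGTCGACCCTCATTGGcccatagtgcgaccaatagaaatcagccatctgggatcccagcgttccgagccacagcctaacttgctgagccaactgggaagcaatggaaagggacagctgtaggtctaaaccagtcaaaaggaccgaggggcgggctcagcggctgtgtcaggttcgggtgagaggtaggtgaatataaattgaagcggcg
Syvn1: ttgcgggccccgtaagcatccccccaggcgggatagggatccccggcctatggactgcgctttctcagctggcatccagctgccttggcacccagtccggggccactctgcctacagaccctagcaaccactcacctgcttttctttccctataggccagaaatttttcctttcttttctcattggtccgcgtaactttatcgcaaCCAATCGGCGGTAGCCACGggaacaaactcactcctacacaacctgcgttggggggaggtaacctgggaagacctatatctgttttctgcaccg
Creld2: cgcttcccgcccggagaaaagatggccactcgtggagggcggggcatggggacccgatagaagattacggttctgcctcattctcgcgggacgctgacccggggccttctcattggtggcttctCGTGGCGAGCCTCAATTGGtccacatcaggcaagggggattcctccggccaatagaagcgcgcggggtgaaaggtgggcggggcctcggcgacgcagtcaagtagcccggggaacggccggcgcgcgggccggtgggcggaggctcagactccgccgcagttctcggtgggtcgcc

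Proteins that fold and modify collagen in the same compartment were also higher. Serpinh1 (gene 12406, chromosome 7, 99345375 to 99353239), the collagen chaperone Hsp47, was at 315, 182 and 197 FPKM in busulfan plus AOS hearts, against 95.5, 97.7 and 93.7 in control hearts (log2 fold change 1.08 ± 0.18 SE, adjusted p = 0.0479). P4ha1 (gene 18451, chromosome 10, 59323197 to 59373304), the catalytic subunit of collagen prolyl hydroxylase, was at 90.3, 58.8 and 58.7 FPKM in busulfan plus AOS hearts, against 28.6, 23.8 and 24 in control hearts (log2 fold change 1.22 ± 0.21 SE, adjusted p = 0.0479). In both, replicate 1 was well above the other 2 treated libraries, and these still lay clear of the controls. P4ha1 was the 1 of 17 tested collagen processing genes past the threshold. In that list 9 were higher and none lower at an unadjusted p under 0.05, with a median of 0.44, and Plod3, a lysyl hydroxylase, was at a log2 fold change of 0.49 ± 0.11 (adjusted p = 0.0736). The collagens and matrix proteins themselves gave no call among 26 tested, with 15 higher and 1 lower at an unadjusted p under 0.05 and a median of 0.59. Col6a3 was at 13.2, 11.6 and 9.9 FPKM with busulfan plus AOS and 3.54, 5.44 and 6.79 in controls (log2 fold change 0.96 ± 0.18, adjusted p = 0.0646). Col3a1, of fibrillar collagen, was at 264, 151 and 205 FPKM with busulfan plus AOS and 52, 106 and 73.9 in controls (log2 fold change 1.24 ± 0.37, adjusted p = 0.0864). Fibronectin (Fn1) was at 63, 38.2 and 27.2 FPKM with busulfan plus AOS and 5.93, 16.7 and 12.4 in controls (log2 fold change 1.69 ± 0.54, adjusted p = 0.0914). The groups did not overlap in any of the 3, as was so for 30.5% of genes tested on the higher side in FPKM. Without replicate 1 of busulfan plus AOS 9 members of the matrix list and 3 of the processing list were higher at an unadjusted p under 0.05, with medians of 0.37 and 0.43. At that p 1597 of all genes were higher without that library, against 2458 with it. Matrix proteases and their inhibitors had 5 higher and none lower of 16, with Mmp19 at a log2 fold change of 1.68 ± 0.38 (adjusted p = 0.0736) and Mmp2 at a log2 fold change of 0.98 ± 0.24 (adjusted p = 0.0777). TGF-beta signalling had 8 higher and 1 lower of 19, with the inhibitory Smad7 at a log2 fold change of 1.03 ± 0.28 (adjusted p = 0.0818) and the receptor Tgfbr2 at a log2 fold change of 0.67 ± 0.22 (adjusted p = 0.0962). Neither list had a call, and without replicate 1 of busulfan plus AOS each had 2 higher members at that p. With all libraries 16.7% of all genes were higher and 16% lower at an unadjusted p under 0.05. Fibroblast markers had a higher mean in all 12, 3 of them at that p (median 0.42), not far above that share. Their summed FPKM was 3198, 2363 and 2889 with busulfan plus AOS and 1448, 2334 and 1743 in controls. With adipocyte markers as a covariate the median was below 0 for TGF-beta signalling (-0.04), matrix proteases (-0.12) and fibroblast markers (-0.37), with no higher member at an unadjusted p under 0.05. In that fit it was 0.09 for the matrix list, with 3 higher and 3 lower, and 0.11 for collagen processing, with 1 in each direction. With atrial markers as a covariate the fibroblast median was -0.05, TGF-beta signalling had 1 higher member (median 0.19) and matrix proteases 3 (0.22). At an unadjusted p under 0.05, 491 of all genes were higher and 415 lower with the adipocyte covariate. With the atrial covariate these were 1408 and 1067. Whether more fibroblasts or more RNA per fibroblast lay behind these levels cannot be told apart in bulk tissue, and the part of fibroblasts in the collagen values was not tested.

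Interferon-stimulated genes had the highest median of any pathway list, 2.09, with all 32 tested members at a higher mean. At an unadjusted p under 0.05 there were 30 higher and none lower, but 1 passed the threshold. That gene was Apol9a (gene 223672, chromosome 15, 77403789 to 77411080), an interferon-induced member of the apolipoprotein L family, at 5, 4.93 and 18.9 FPKM in busulfan plus AOS hearts, against 0.3, 0.38 and 0.57 in control hearts (log2 fold change 4.33 ± 0.75 SE, adjusted p = 0.0479). Apol9b, a near-identical neighbour whose reads may be split with it, was at 6.15, 6.89 and 19.4 FPKM with busulfan plus AOS and 0.3, 0.74 and 0.44 in controls (log2 fold change 4.33 ± 0.81, adjusted p = 0.0606). Stat2, a subunit of the interferon-activated transcription factor, was at 14.9, 14.5 and 38.1 FPKM with busulfan plus AOS and 4.72, 5.97 and 5.85 in controls (log2 fold change 1.85 ± 0.40, adjusted p = 0.0736). Replicate 3 of busulfan plus AOS was the highest library in all 3 genes, at more than 2 times the next. The antiviral GTPase gene Mx1 was at a log2 fold change of 3.87 ± 0.90 (adjusted p = 0.0736), the nucleic acid sensor gene Zbp1 at a log2 fold change of 4.24 ± 1.00 (adjusted p = 0.0766) and Ddx58, which encodes the RNA sensor RIG-I, at a log2 fold change of 1.55 ± 0.37 (adjusted p = 0.0777). Summed over the 32 genes, FPKM was 697, 741 and 1711 with busulfan plus AOS and 235, 237 and 266 in controls. Without replicate 3 of busulfan plus AOS the median was 1.46, and 25 members were higher at an unadjusted p under 0.05. With adipocyte markers as a covariate the median was 0.98, and 5 of the 32 members were higher. At that p 491 of all 14687 genes tested were higher with this covariate, against 2458 without it. The summed adipocyte markers, like the interferon genes, did not overlap between the groups. That fit therefore cannot tell their part in the interferon values apart from the treatments. Znfx1, an antiviral helicase-like protein outside the list, rose, at 21.8, 18.2 and 26.7 FPKM in busulfan plus AOS hearts, against 9.13, 9.41 and 9.72 in control hearts (log2 fold change 1.19 ± 0.20 SE, adjusted p = 0.0479).

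Interferon-activated factors bind the interferon-stimulated response element, searched here by its core GAAANNGAAA on both strands in the same windows. Of 26 ER list members with a window 1 held it, and none of 22 interferon members held the ER stress element. The core was found in 424 of 11194 tested genes with a window, or 3.79%, and in 15 of 22 interferon list members with one, or 68.2%. Here too list and element were chosen for the same response, so the share describes promoters only. The 15 had a median log2 fold change of 2.16, and the members with a window that lacked it 1.59. Over all 424 genes 29.5% were higher and 12% lower at an unadjusted p under 0.05, against 16.4% and 16.7% of all genes with a window. The 15 list members are among the 424 and supplied 14 of the 125 that were higher. Of the 28 genes past the threshold with a window, Apol9a, Lats2 and Cflar held it. Windows are shown for Apol9a, which is both in the list and past the threshold, and for Stat2 and Ddx58, a factor and a sensor of the list that hold the core. Capitals mark the core, which reads in reverse complement in all 3. It lies before the start site in Apol9a and Stat2 and just after it in Ddx58. In Apol9a 2 overlapping matches form 1 run of capitals, and a second window of that gene is not printed. The Apol9a window is chr15:77411031-77411330, minus strand. The Stat2 window is chr10:128270248-128270547, plus strand. The Ddx58 window is chr4:40239776-40240075, minus strand.
Apol9a: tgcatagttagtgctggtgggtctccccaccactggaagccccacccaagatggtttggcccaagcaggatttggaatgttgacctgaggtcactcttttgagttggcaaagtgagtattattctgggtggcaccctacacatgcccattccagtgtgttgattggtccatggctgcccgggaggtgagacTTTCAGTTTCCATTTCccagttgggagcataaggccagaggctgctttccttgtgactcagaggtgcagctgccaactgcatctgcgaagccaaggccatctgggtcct
Stat2: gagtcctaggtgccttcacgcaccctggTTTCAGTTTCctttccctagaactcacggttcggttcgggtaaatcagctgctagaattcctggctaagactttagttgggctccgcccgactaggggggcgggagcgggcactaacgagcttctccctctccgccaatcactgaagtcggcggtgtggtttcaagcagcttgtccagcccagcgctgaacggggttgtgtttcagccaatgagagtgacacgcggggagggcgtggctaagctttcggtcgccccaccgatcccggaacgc
Ddx58: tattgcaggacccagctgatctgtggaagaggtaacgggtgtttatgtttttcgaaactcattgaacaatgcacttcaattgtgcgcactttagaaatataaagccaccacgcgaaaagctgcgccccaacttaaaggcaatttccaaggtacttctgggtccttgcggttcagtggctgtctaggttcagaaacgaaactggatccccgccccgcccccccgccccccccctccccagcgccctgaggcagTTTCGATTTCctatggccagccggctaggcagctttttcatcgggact

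Among antigen presentation genes, replicate 3 of busulfan plus AOS was again the highest library for H2-K1. H2-K1, a class I heavy chain whose reads may be shared with other class I genes, was at 259, 219 and 381 FPKM in busulfan plus AOS hearts, against 58.1, 70 and 66.4 in control hearts (log2 fold change 1.94 ± 0.35 SE, adjusted p = 0.0568). The class I transactivator gene Nlrc5 was at a log2 fold change of 2.59 ± 0.56 (adjusted p = 0.0736) and B2m, the light chain, at a log2 fold change of 1.26 ± 0.31 (adjusted p = 0.0787). None of 14 tested MHC genes passed, and 9 were higher and none lower at an unadjusted p under 0.05 (median 1.24). Without replicate 3 of busulfan plus AOS these were 5 genes and a median of 0.84. Among chemokines and cytokines 1 of 25 passed, Cmklr1, the receptor of the leukocyte attractant chemerin, at 14.4, 10.3 and 11.5 FPKM in busulfan plus AOS hearts, against 2.92, 5.96 and 4.44 in control hearts (log2 fold change 1.24 ± 0.21 SE, adjusted p = 0.0479). The monocyte chemokine gene Ccl7 was at 8.02, 7.3 and 13.3 FPKM with busulfan plus AOS and 2.28, 1.27 and 2.09 in controls (log2 fold change 2.15 ± 0.41, adjusted p = 0.0646), Ccl6 at a log2 fold change of 1.53 ± 0.36 (adjusted p = 0.077) and the receptor gene Ccr2 at a log2 fold change of 1.39 ± 0.34 (adjusted p = 0.0783). That list had 13 higher and 1 lower at an unadjusted p under 0.05, with a median of 1.17. Among 15 leukocyte adhesion and signalling genes Dok2, an adaptor of myeloid and T cells, rose, at 3.39, 3.55 and 5.21 FPKM in busulfan plus AOS hearts, against 1.25, 1.53 and 1.26 in control hearts (log2 fold change 1.36 ± 0.21 SE, adjusted p = 0.044). The adhesion receptor Icam1 was at a log2 fold change of 0.99 ± 0.24 (adjusted p = 0.077) and the beta-2 integrin gene Itgb2 at a log2 fold change of 1.52 ± 0.37 (adjusted p = 0.0782). In that list 10 were higher and none lower at an unadjusted p under 0.05, with a median of 0.95, and without replicate 3 of busulfan plus AOS 6 were higher. Macrophage and monocyte markers were higher in 14 of 15 by mean and in 12 at an unadjusted p under 0.05 (median 0.88), with none past the threshold. The mannose receptor gene Mrc1 was at 17.4, 17.4 and 18.9 FPKM with busulfan plus AOS and 7.6, 8.78 and 10.5 in controls (log2 fold change 0.81 ± 0.18, adjusted p = 0.0736) and the complement gene C1qa at a log2 fold change of 1.08 ± 0.28 (adjusted p = 0.0787). Their summed FPKM was 710.3, 699 and 911 with busulfan plus AOS and 369, 397 and 343 in controls, without overlap, and its part in the immune values was not tested. Without replicate 3 of busulfan plus AOS 7 of these markers were higher at an unadjusted p under 0.05, with a median of 0.70. With adipocyte markers as a covariate 2 MHC, 5 chemokine, 1 leukocyte and 1 macrophage gene were higher at that p, and the list medians were 0.81, 0.40, 0.36 and 0.31. In that fit 491 of all genes were higher at that p, against 2458 without the covariate.

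The remaining genes that rose fall into several kinds. Mtmr4 (gene 170749, chromosome 11, 87591954 to 87616302), a phosphatase of endosomal phosphoinositides, had the smallest p of all genes, at 10.8, 8.78 and 8.85 FPKM in busulfan plus AOS hearts, against 4.34, 4.38 and 4.92 in control hearts (log2 fold change 0.89 ± 0.10 SE, adjusted p = 0.0134). Rin3, an activator of the endosomal GTPase Rab5, was at 7.43, 6.83 and 7.02 FPKM in busulfan plus AOS hearts, against 3.22, 3.82 and 3.81 in control hearts (log2 fold change 0.84 ± 0.10 SE, adjusted p = 0.0134). Their controls and treated libraries were each closely grouped. Banp (gene 53325, chromosome 8, 121947972 to 122029260), a nuclear DNA-binding protein that was first described as a partner of p53, was at 11.3, 8.67 and 9.44 FPKM in busulfan plus AOS hearts, against 2.86, 2.86 and 2.2 in control hearts (log2 fold change 1.62 ± 0.19 SE, adjusted p = 0.0134). The chromatin ATPase gene Atad2 was at 3.25, 2.53 and 2.28 FPKM in busulfan plus AOS hearts, against 0.82, 0.99 and 0.95 in control hearts (log2 fold change 1.35 ± 0.21 SE, adjusted p = 0.044). Every treated library of these 2 genes was above 2 times its highest control library.

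Genes of cells other than muscle were among those that rose. Wt1 (gene 22431, chromosome 2, 105126529 to 105173614), a transcription factor of the epicardium, was at 9.2, 6.95 and 5.79 FPKM in busulfan plus AOS hearts, against 1.74, 2.17 and 1.97 in control hearts (log2 fold change 1.71 ± 0.20 SE, adjusted p = 0.0134). All 12 epicardial and mesothelial markers had a higher mean, 9 of them at an unadjusted p under 0.05, and their summed FPKM was 591, 276 and 349 with busulfan plus AOS and 63.9, 142 and 77.2 in controls. Without replicate 1 of busulfan plus AOS 3 epicardial markers were higher at that p, with a median of 1.62. Without that library 1597 of all genes were higher, against 2458 with it. The epicardial median was 0.95 with atrial markers as a covariate. With adipocyte markers as a covariate it was below 0, at -0.48, with 1 higher and 1 lower, where 491 and 415 of all genes were. C3, a complement component in that list, was at a log2 fold change of 1.94 ± 0.52 (adjusted p = 0.0818). Mmrn2, a matrix protein of endothelium, was at 29.2, 26.3 and 29.1 FPKM in busulfan plus AOS hearts, against 14.2, 15.2 and 14.2 in control hearts (log2 fold change 0.77 ± 0.09 SE, adjusted p = 0.0134). The 14 endothelial markers as a list had a median of -0.05, with 2 higher and 2 lower at an unadjusted p under 0.05. Those counts were near the shares of all genes, 16.7% and 16%. Ret, the receptor kinase for glial cell line-derived factors, was at 3.3, 2.47 and 2.54 FPKM in busulfan plus AOS hearts, against 1.04, 0.79 and 0.67 in control hearts (log2 fold change 1.55 ± 0.25 SE, adjusted p = 0.0479). It was the 1 call among 11 tested Schwann cell and neuron markers, of which all had a higher mean. Gas6, the ligand of the Axl family of receptors, was at 167, 142 and 167 FPKM in busulfan plus AOS hearts, against 52.8, 83.3 and 61.9 in control hearts (log2 fold change 1.08 ± 0.19 SE, adjusted p = 0.0479). The part of epicardial or nerve tissue in the Wt1 and Ret values was not tested.

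Several enzymes and regulators rose too. Elovl5, an elongase of polyunsaturated fatty acids, was at 53, 43.6 and 39.6 FPKM in busulfan plus AOS hearts, against 20.2, 20 and 19.1 in control hearts (log2 fold change 1.01 ± 0.14 SE, adjusted p = 0.0241). B4galt5, which makes lactosylceramide, was at 11.1, 8.12 and 8.01 FPKM in busulfan plus AOS hearts, against 3.36, 4.82 and 3.72 in control hearts (log2 fold change 1.00 ± 0.14 SE, adjusted p = 0.0204). Gclc, the catalytic subunit of the first enzyme of glutathione synthesis, was at 9.36, 9.98 and 8.59 FPKM in busulfan plus AOS hearts, against 4.25, 4.91 and 4.42 in control hearts (log2 fold change 0.87 ± 0.15 SE, adjusted p = 0.0479). Tubb2a, a beta-tubulin whose sequence is close to that of other tubulins, was at 58.6, 49.6 and 57.4 FPKM in busulfan plus AOS hearts, against 30.1, 32.7 and 29.8 in control hearts (log2 fold change 0.65 ± 0.10 SE, adjusted p = 0.044). Atp10a, a phospholipid flippase, was at 3.1, 1.57 and 1.92 FPKM in busulfan plus AOS hearts, against 0.43, 0.63 and 0.5 in control hearts (log2 fold change 1.85 ± 0.32 SE, adjusted p = 0.0479), and Jdp2, a repressor of AP-1, at 15.9, 10.1 and 8.81 FPKM in busulfan plus AOS hearts, against 3.96, 4.81 and 3.73 in control hearts (log2 fold change 1.22 ± 0.21 SE, adjusted p = 0.0479). In Atp10a and Jdp2 replicate 1 of busulfan plus AOS was the highest library, and none of these genes had overlapping groups. The others were Creb5, a transcription factor (log2 fold change 1.02), Prdm15, a zinc finger regulator (0.96), Slc35e2, of a family of nucleotide sugar transporters (0.96), and Cflar, an inhibitor of caspase-8 (0.84). Arhgap23 (0.69), Lats2, a Hippo pathway kinase (0.65), Pom121, of the nuclear pore (0.61), Pprc1, a coactivator of the PGC-1 family (0.59), and Adcy4, an adenylyl cyclase (0.47), rose less. The adjusted p-values of these 9 genes lay between 0.044 and 0.0494.

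The named genes that fell act in several processes, among them the daily clock and calcium entry. Dbp (gene 13170, chromosome 7, 45705100 to 45710203), an output transcription factor of the circadian clock, was at 3.27, 3.3 and 3.8 FPKM in busulfan plus AOS hearts, against 7.53, 7.08 and 9.23 in control hearts (log2 fold change -1.37 ± 0.20 SE, adjusted p = 0.0322). It was the 1 call among 20 clock genes, which had 5 higher and 4 lower members at an unadjusted p under 0.05. Of all genes 16.7% were higher and 16% lower at that p, not far from these counts. Tef, a relative of Dbp, was at a log2 fold change of -0.49 ± 0.11 (adjusted p = 0.0736). The clock regulators Npas2, Per2 and Per1 were at 0.65, 1.81 and 1.25 in log2 fold change (adjusted p = 0.0724, 0.086 and 0.0901). The labels give no hour of collection, and its part in the clock values was not tested. Rrad (gene 56437, chromosome 8, 104628070 to 104631350), a GTPase that restrains the L-type calcium channel, was at 76.4, 46.5 and 79.1 FPKM in busulfan plus AOS hearts, against 130.2, 151 and 147 in control hearts (log2 fold change -1.27 ± 0.22 SE, adjusted p = 0.0479). The highest treated library lay below the lowest control. It was the 1 call among 20 calcium handling genes, in which 5 were lower and none higher at an unadjusted p under 0.05. The shares of all genes were 16% lower and 16.7% higher. Trdn, which anchors calsequestrin at the release channel, was at a log2 fold change of -0.59 ± 0.16 (adjusted p = 0.082).

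Thnsl1, which encodes a threonine synthase-like protein, was at 2.18, 2.16 and 2.43 FPKM in busulfan plus AOS hearts, against 4.25, 3.44 and 4.91 in control hearts (log2 fold change -1.04 ± 0.17 SE, adjusted p = 0.0479). Ttc30b, a subunit of the complex that carries cargo along cilia, was at 3.96, 5.59 and 5.76 FPKM in busulfan plus AOS hearts, against 8.38, 9.07 and 7.65 in control hearts (log2 fold change -0.89 ± 0.15 SE, adjusted p = 0.0479). Cep70, a centrosomal protein, was at 3.21, 3.36 and 2.96 FPKM in busulfan plus AOS hearts, against 3.41, 3.99 and 4.53 in control hearts (log2 fold change -0.67 ± 0.11 SE, adjusted p = 0.0479). The Cep70 groups came within 0.1 FPKM of each other. Of 26 cilium and centrosome genes these last 2 passed, with 6 lower and none higher at an unadjusted p under 0.05 and a list median of -0.05. At that p 16% of all genes were lower and 16.7% higher. Ttc30a1, a close copy of Ttc30b whose reads may be split with it, was at a log2 fold change of -0.97 ± 0.26 (adjusted p = 0.0818). Sftpc (gene 20389, chromosome 14, 70520941 to 70524081), the surfactant protein of the lung alveolus, was at 0, 0.24 and 0 FPKM in busulfan plus AOS hearts, against 13.6, 6.68 and 11.8 in control hearts (adjusted p = 0.02). It had 0, 2 and 0 counts with busulfan plus AOS and 90, 53 and 85 in controls, a ratio of control to busulfan plus AOS of 153, with an exact 95% interval of 42.0 to 1275 that covers counting error only. Sftpc is not a product of heart muscle. Summed over 12 lung and airway markers, FPKM was 1966, 336 and 186 with busulfan plus AOS and 339.9, 263 and 271 in controls. Of the 10 tested, 6 had a higher mean and 4 a lower one, so the sum does not stand for each member. Sftpb, another surfactant gene, was at a log2 fold change of -2.42 (adjusted p = 0.244). The part of lung tissue in the Sftpc value was not tested.

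The genes of energy metabolism and contraction gave no call, yet most had a lower mean. In respiratory complex I all 24 genes tested were lower at an unadjusted p under 0.05, with none past the threshold and a median log2 fold change of -0.78. Ndufs8, an iron-sulphur subunit, was at 169.7, 203 and 220.1 FPKM in busulfan plus AOS hearts, against 373, 316 and 274 in control hearts (log2 fold change -0.88 ± 0.25 SE, adjusted p = 0.0841). Ndufa5 was at 347, 524 and 547 FPKM with busulfan plus AOS and 945, 812 and 690.2 in controls (log2 fold change -0.96 ± 0.29, adjusted p = 0.0879). Replicate 1 of busulfan plus AOS was the lowest library in both. In complexes II, III and IV and ATP synthase 27 of 32 were lower and none higher (median -0.72), with Cox6a2, a heart and muscle subunit of cytochrome oxidase, at 1551, 2378 and 2430.2 FPKM with busulfan plus AOS and 3929.9, 3931 and 3145 in controls (log2 fold change -0.96 ± 0.27, adjusted p = 0.0857). The citric acid cycle had 14 of 16 lower (median -0.58), glucose uptake and glycolysis 12 of 20 (-0.54) and fatty acid uptake and oxidation 11 lower and 2 higher of 26 (-0.57). Gapdh, a glycolytic enzyme whose processed pseudogenes can take its reads, was at 31.2, 44.1 and 54.7 FPKM with busulfan plus AOS and 147, 107 and 83.4 in controls (log2 fold change -1.52 ± 0.28, adjusted p = 0.0584). The carnitine-acylcarnitine carrier gene Slc25a20 was at a log2 fold change of -0.70 ± 0.24 (adjusted p = 0.097), and Fabp3, the fatty acid carrier of heart, at a log2 fold change of -1.03 ± 0.41 (adjusted p = 0.12). All of these counts are at an unadjusted p under 0.05, which 16% of all genes passed as lower.

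Sarcomere and Z-disc genes had 16 lower and none higher of 23, with a median of -0.71 and no call. Troponin T (Tnnt2) was at 4338, 5406 and 6178 FPKM with busulfan plus AOS and 9742, 8121 and 7852 in controls (log2 fold change -0.87 ± 0.26, adjusted p = 0.087), and the Z-disc protein gene Myoz2 at 536, 644 and 683 FPKM with busulfan plus AOS and 1078, 919 and 943 in controls (log2 fold change -0.84 ± 0.22, adjusted p = 0.0818). The slow myosin gene Myh7, which rises again in many stressed rodent hearts, was at 363, 449.6 and 488 FPKM with busulfan plus AOS and 661, 916 and 581 in controls (log2 fold change -0.93 ± 0.25, adjusted p = 0.0818). The skeletal alpha-actin gene Acta1, another such gene, was at 139.6, 99.8 and 216 FPKM with busulfan plus AOS and 506, 815 and 1068 in controls (log2 fold change -2.57 ± 0.76, adjusted p = 0.087). The groups did not overlap in any of the 4 genes. Of all genes tested 10.7% were so on the lower side in FPKM, and 20% in TMM-scaled CPM. The list of fetal and stress genes of heart muscle that holds Myh7 and Acta1 had 7 lower and none higher of 14 at an unadjusted p under 0.05 (median -0.58), and no call. That count was 2 without replicate 1 of busulfan plus AOS, where the count of lower genes over all genes fell from 2357 to 1072. The inward rectifier gene Kcnj2 was at a log2 fold change of -0.85 ± 0.20 (adjusted p = 0.0766), within a list of 25 ion channels that had 5 lower and 1 higher at an unadjusted p under 0.05. For all genes the shares at that p were 16% lower and 16.7% higher. Proteasome genes had 25 lower and none higher of 30 (median -0.42), and cytosolic ribosomal proteins 17 lower and none higher of 33 (-0.28). With library totals in place of TMM these medians were -0.59 for complex I, -0.52 for the sarcomere, -0.23 for the proteasome and -0.09 for ribosomal proteins, where the median of all genes was 0.23. With atrial markers as a covariate the median was -0.46 for complex I (17 lower at an unadjusted p under 0.05) and -0.35 for the sarcomere (5 lower). With adipocyte markers as a covariate it was -0.20 for complex I and -0.08 for the sarcomere, with none lower in either list. In that fit the other metabolic, proteasome, ribosomal and fetal gene lists had at most 2 lower members at that p. The calcium handling and ion channel medians there were above 0, at 0.04 and 0.02. Of all genes 1067 were lower at that p with the atrial covariate and 415 with the adipocyte covariate. All 11 tested ventricular markers had a lower mean too, and their summed FPKM was 24944, 43117 and 42343 with busulfan plus AOS and 66917, 56657 and 58721 in controls. Without replicate 1 of busulfan plus AOS, the library richest in atrial markers, 15 of the 24 complex I genes, none of the citric acid cycle genes and 5 sarcomere genes were lower at an unadjusted p under 0.05. The medians were then -0.61, -0.45 and -0.57. Without that library complexes II, III and IV and ATP synthase had 9 lower genes, fatty acid genes 1, glycolysis 5, the proteasome 11 and ribosomal proteins 5 at that p. The count over all genes fell as well, to 1072 lower without that library from 2357 with it. Leaving out control replicate 1 lowered these counts alike, to 14 in complex I, 10 in the proteasome and 1128 over all genes.

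**Figure D3:**
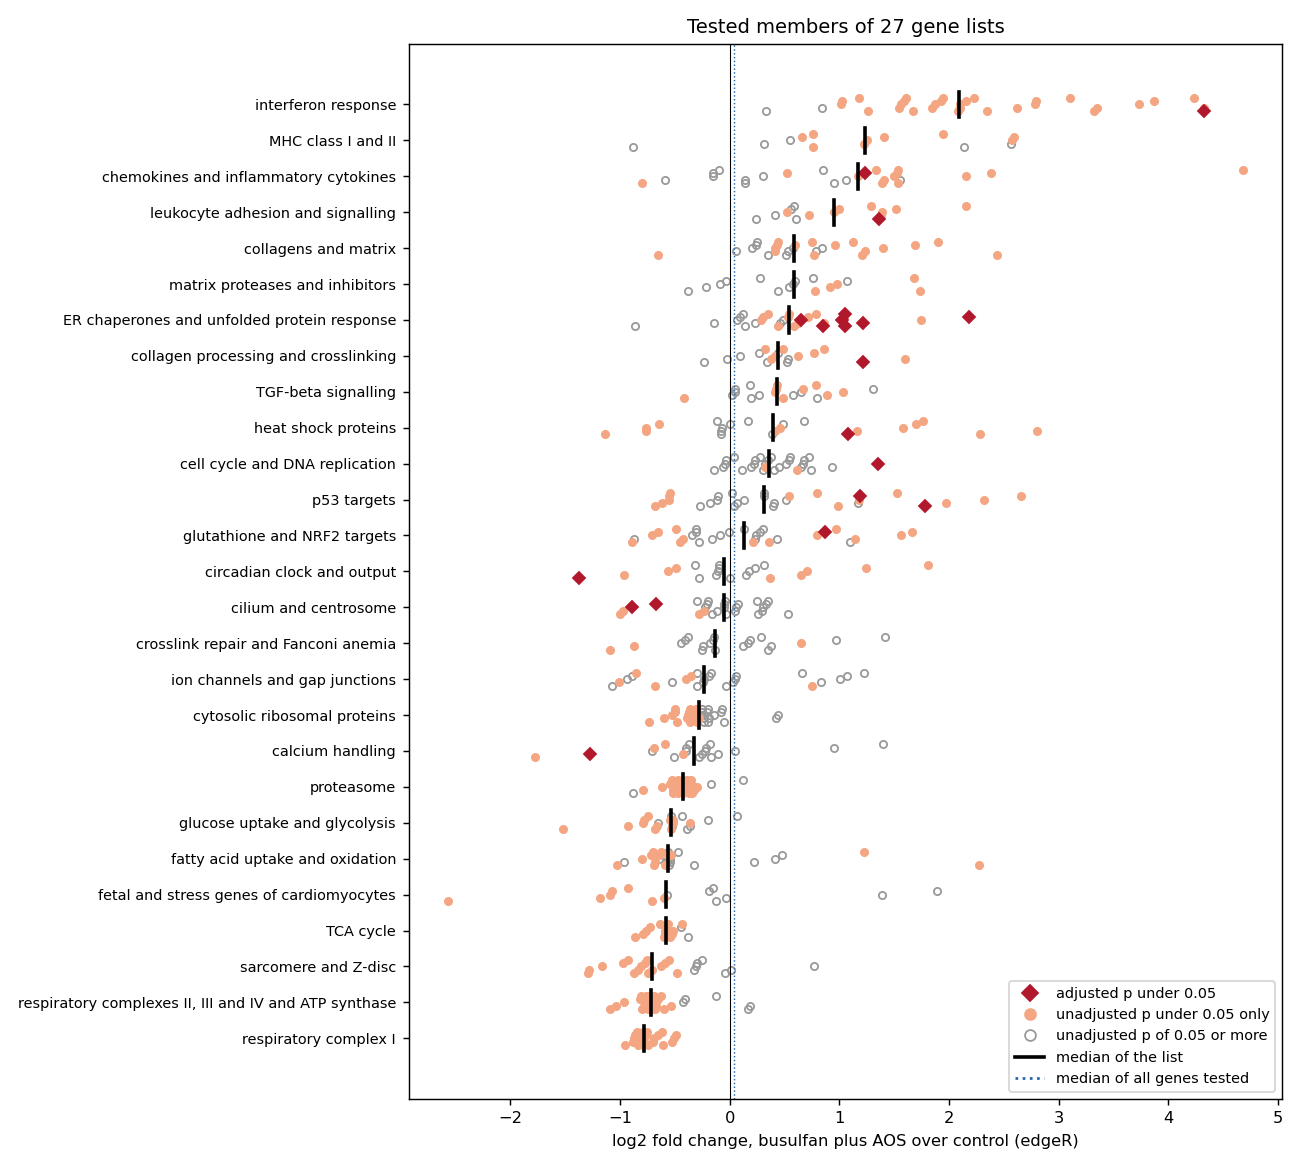
Log2 fold change of busulfan plus AOS over control (x axis) for each tested member of 27 gene lists (rows, ordered by their median, black bar). Red diamonds passed the threshold over all genes, orange circles had an unadjusted p under 0.05 only, and open circles neither. The interferon list lies farthest to the right with a median of 2.09 and complex I farthest to the left with -0.78.

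Stress lists beyond those of the ER were mixed. Of 22 heat shock genes, Serpinh1 was the 1 that rose, with 9 higher and 4 lower at an unadjusted p under 0.05 (median 0.40). For all genes the shares at that p were 16.7% higher and 16% lower, so the lower count was near background. Dnaja1, a cytosolic Hsp40, was at 235, 134 and 118 FPKM with busulfan plus AOS and 49.5, 37.4 and 43.8 in controls (log2 fold change 1.70 ± 0.31, adjusted p = 0.0558). Hsph1, of the Hsp110 family, was at 214, 115 and 87.3 FPKM with busulfan plus AOS and 49.4, 23.9 and 32.2 in controls (log2 fold change 1.77 ± 0.44, adjusted p = 0.0787). Neither gene had overlapping groups, as was so for 30.5% of genes tested on the higher side in FPKM. The small heat shock protein gene Cryab was at a log2 fold change of -0.76 ± 0.19 (adjusted p = 0.0787) and Hspb6 at a log2 fold change of -1.14 ± 0.34 (adjusted p = 0.0883). Without replicate 1 of busulfan plus AOS 5 heat shock genes were higher and 2 lower at that p, with a median of 0.15. Over all genes these counts were 1597 and 1072 without that library, against 2458 and 2357 with it. In the glutathione and NRF2 list Gclc was 1 of 29, with 8 higher and 6 lower at an unadjusted p under 0.05. All genes tested had 16.7% higher and 16% lower at that p. Hmox1, heme oxygenase 1, was at 29.7, 24.3 and 19.6 FPKM with busulfan plus AOS and 4.98, 8.8 and 8.23 in controls (log2 fold change 1.56 ± 0.28, adjusted p = 0.0553). Nfe2l2, which encodes NRF2 itself, was at a log2 fold change of 0.36 ± 0.10 (adjusted p = 0.0818), and the glutathione transferases Mgst1 and Gsta4 were at a log2 fold change of 1.66 ± 0.48 (adjusted p = 0.086) and a log2 fold change of -0.42 ± 0.10 (adjusted p = 0.0787). Crosslink repair and Fanconi anemia genes had no call among 20, with 1 higher and 2 lower at an unadjusted p under 0.05, at or below the background. Of 28 cell cycle and replication genes Atad2 passed, and 3 were higher and none lower at that p. Both counts were below the shares of all genes, 16.7% higher and 16% lower.

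The largest shifts in FPKM were in muscle and blood genes, none of which passed the threshold. Myl4 and Myl7, the atrial myosin light chains, gained most. Myl4 was at 6037, 1241 and 3341 FPKM with busulfan plus AOS and 112, 3150.2 and 217 in controls, and Myl7 was at 5488, 1177 and 3121 FPKM with busulfan plus AOS and 132, 3321 and 234 in controls. Control replicate 2 lay above replicate 2 of busulfan plus AOS in both, so the groups overlapped (log2 fold changes 1.45 and 1.26, adjusted p = 0.583 and 0.632). The ventricular light chain Myl2 was at 2542, 9966 and 8826 FPKM in busulfan plus AOS hearts, against 18054, 14144 and 14164 in control hearts (log2 fold change -1.28, adjusted p = 0.143). Myoglobin (Mb) was at 4907, 10357 and 9673 FPKM in busulfan plus AOS hearts, against 16940.4, 15264 and 13777 in control hearts (log2 fold change -1.06, adjusted p = 0.108). In Myl2 and Mb replicate 1 of busulfan plus AOS, the library highest in Myl4, was the lowest of all 6. The alpha-globin gene Hba-a1, of which near-identical copies exist, was at 17834, 3394 and 9060.4 FPKM in busulfan plus AOS hearts, against 33551, 16091 and 6363 in control hearts, with overlap. Hbb-bs, a beta-globin gene close in sequence to other beta-globins, was among the largest gains instead. It was at 190.5, 9.61 and 1909 FPKM in busulfan plus AOS hearts, against 0.66, 0.45 and 0.2 in control hearts, without overlap (adjusted p = 0.0736), and replicate 3 of busulfan plus AOS was by far the highest library. Adipocyte markers were higher by mean in 12 of 12, 9 at an unadjusted p under 0.05 (median 3.57), with no call. Their summed FPKM was 3279.8, 1932 and 2563 with busulfan plus AOS and 1375, 1247 and 1122 in controls, without overlap. Most of each sum was Fabp4, which is also in the endothelial list. It was at 1896, 1220 and 1648 FPKM with busulfan plus AOS and 1156, 977 and 906 in controls (log2 fold change 0.46, adjusted p = 0.328). Cfd, adipsin, was at 532, 310.5 and 286 FPKM with busulfan plus AOS and 1.92, 25.6 and 1.99 in controls (log2 fold change 5.07 ± 1.66, adjusted p = 0.0928), and Plin1, which coats lipid droplets, at 42.9, 14.3 and 28.4 FPKM with busulfan plus AOS and 0.06, 1.96 and 0.11 in controls (log2 fold change 5.07 ± 1.66, adjusted p = 0.0928). Liver markers were higher by mean in 14 of 14 and summed to 214, 2577 and 601 with busulfan plus AOS and 25.4, 502 and 82.1 in controls. The erythroid, neutrophil, lymphocyte, thymus and skeletal muscle marker lists had no call and at most 2 members in either direction at an unadjusted p under 0.05. The thymus markers Rag1, Ptcra and Dntt were at 0 in all 3 libraries of busulfan plus AOS. Their control means were also near 0, at 0, 0.03 and 0.017 FPKM, and none was tested. Thymus markers summed to 8.98, 6.08 and 7.91 FPKM with busulfan plus AOS and 1.03, 2.22 and 1.47 in controls. Only Cd1d1 of that list had enough counts to be tested (log2 fold change 2.13). None of the busulfan plus AOS sum came from Rag1, Ptcra or Dntt. Lymphocyte markers summed to 15.5, 15.9 and 7.55 with busulfan plus AOS and 4.09, 4.67 and 3.24 in controls. At an unadjusted p under 0.05, 2 of 14 liver and 1 of 14 atrial markers were higher, both below the 16.7% of all genes. Without control replicate 2, the control highest in both sums, these counts were 13 and 8. Over the leave-outs of the 6 libraries compared they ranged from 1 to 13 and from 1 to 8. The smooth muscle genes Acta2 and Myh11 were at a log2 fold change of 1.14 ± 0.36 (adjusted p = 0.0908) and a log2 fold change of 1.94 ± 0.63 (adjusted p = 0.0925), within a list of 12 with 5 higher and 3 lower at an unadjusted p under 0.05. That list had 1 higher and 2 lower, and a median of 0.07, without replicate 1 of busulfan plus AOS. With all libraries 16.7% of all genes were higher and 16% lower at that p.

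**Figure D4:**
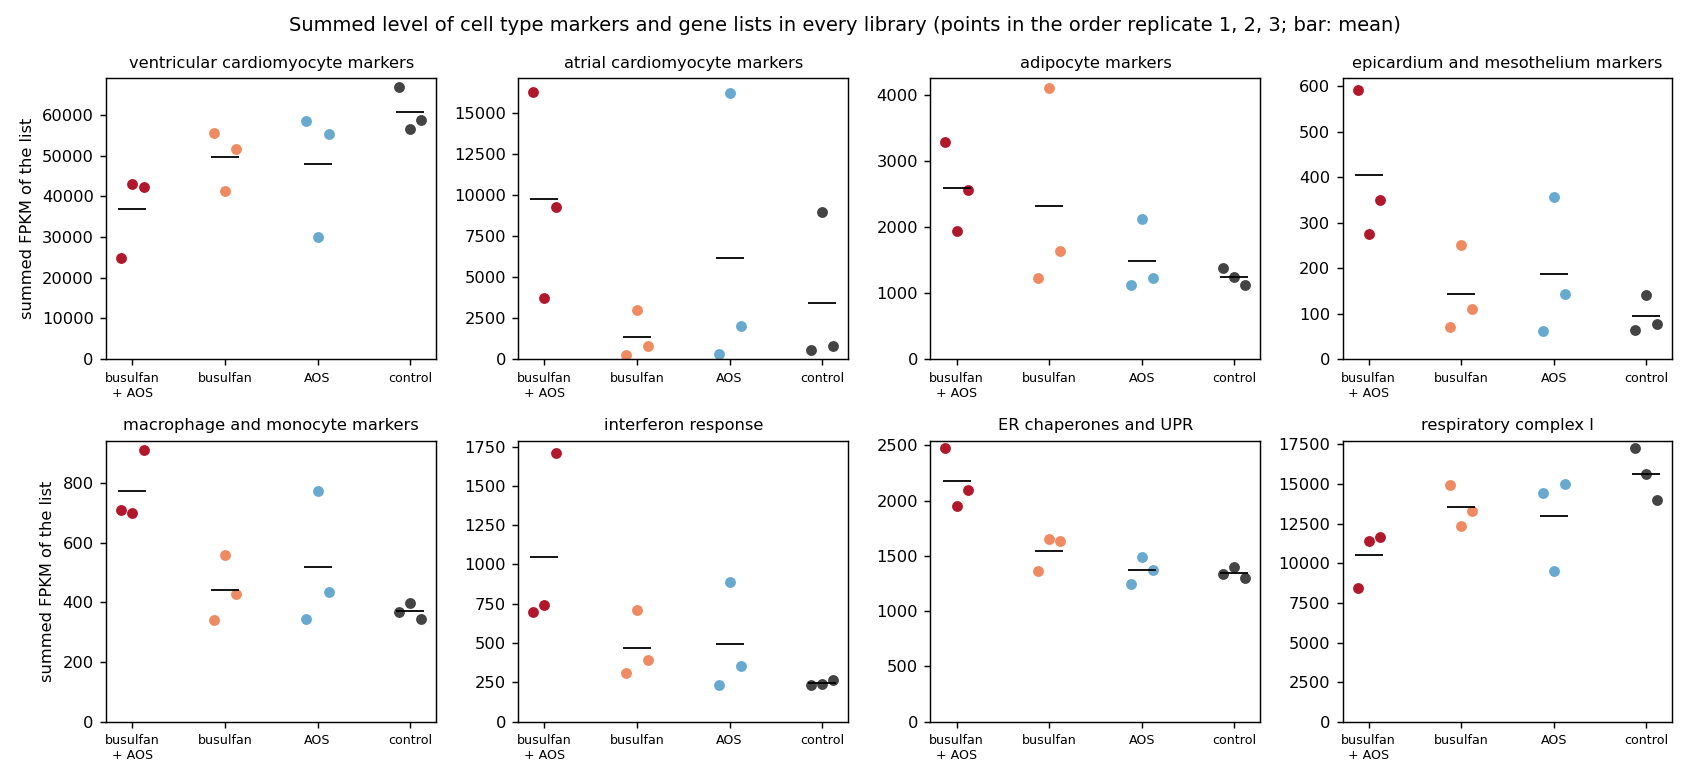
Summed FPKM of 5 marker lists and 3 gene lists in every library, with busulfan plus AOS at the left, then busulfan, AOS and control. Points are replicates 1, 2 and 3 from left to right and bars are means. Atrial markers overlap between busulfan plus AOS and control, and the other 7 sums do not.

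Beside the single treatments, the genes past the threshold had these values. The comparisons of busulfan alone and of AOS alone with control share the control libraries with that of busulfan plus AOS. Eda2r was at 2.4, 3.45 and 3.99 FPKM after busulfan alone and 1.17, 1.3 and 1.25 after AOS alone. Its log2 fold change over control was 1.78 ± 0.24 SE with both agents, 1.85 ± 0.24 with busulfan and 0.38 ± 0.24 with AOS. Zmat3 was at 2.27, 2.86 and 2.45 FPKM after busulfan and 1.32, 1.67 and 1.18 after AOS. Sdf2l1 was at 3.97, 7.48 and 5.15 FPKM after busulfan and 3.08, 4.97 and 3.36 after AOS, below every library of busulfan plus AOS in both cases. Its log2 fold changes over control were 2.18 ± 0.29 with both, 0.88 ± 0.29 with busulfan and 0.29 ± 0.29 with AOS. Serpinh1 was at 123, 135 and 157 FPKM after busulfan and 87.8, 105 and 93.4 after AOS, the AOS libraries lying among or near the controls. Apol9a was at 0.58, 1.17 and 0.49 FPKM after busulfan and 0.79, 4.18 and 1.54 after AOS. Rrad was at 77.2, 58.8 and 67.6 FPKM after busulfan, overlapping busulfan plus AOS, and 106, 88 and 120.2 after AOS. Dbp was at 5.02, 4.13 and 3.98 FPKM after busulfan and 6.05, 5.32 and 7.06 after AOS. Sftpc was at 0.13, 0.12 and 0.38 FPKM after busulfan and 0.64, 0.95 and 0.12 after AOS, low in all 3 treated groups.

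Setting busulfan plus AOS directly against each single treatment gave few calls. Against AOS alone edgeR called 3 genes (0.0204%), all higher, with 1384 (9.42%) at an unadjusted p under 0.05 and 153 called by DESeq2. The 3 were Tubb2a (log2 fold change 0.86 ± 0.10 SE), Zmat3 (1.13 ± 0.14) and Mtmr4 (0.79 ± 0.10), with edgeR adjusted p = 0.0419, 0.0419 and 0.0484. Against busulfan alone edgeR called 0 genes, with 1494 (10.2%) at an unadjusted p under 0.05 and 53 called by DESeq2. There the log2 fold changes were 1.30 ± 0.28 for Sdf2l1, 0.81 ± 0.18 for Manf, 0.81 ± 0.14 for B4galt5, 0.23 ± 0.13 for Zmat3 and -0.06 ± 0.22 for Eda2r. None of these passed, and a missed threshold does not show that the groups were alike.

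**Figure D5:**
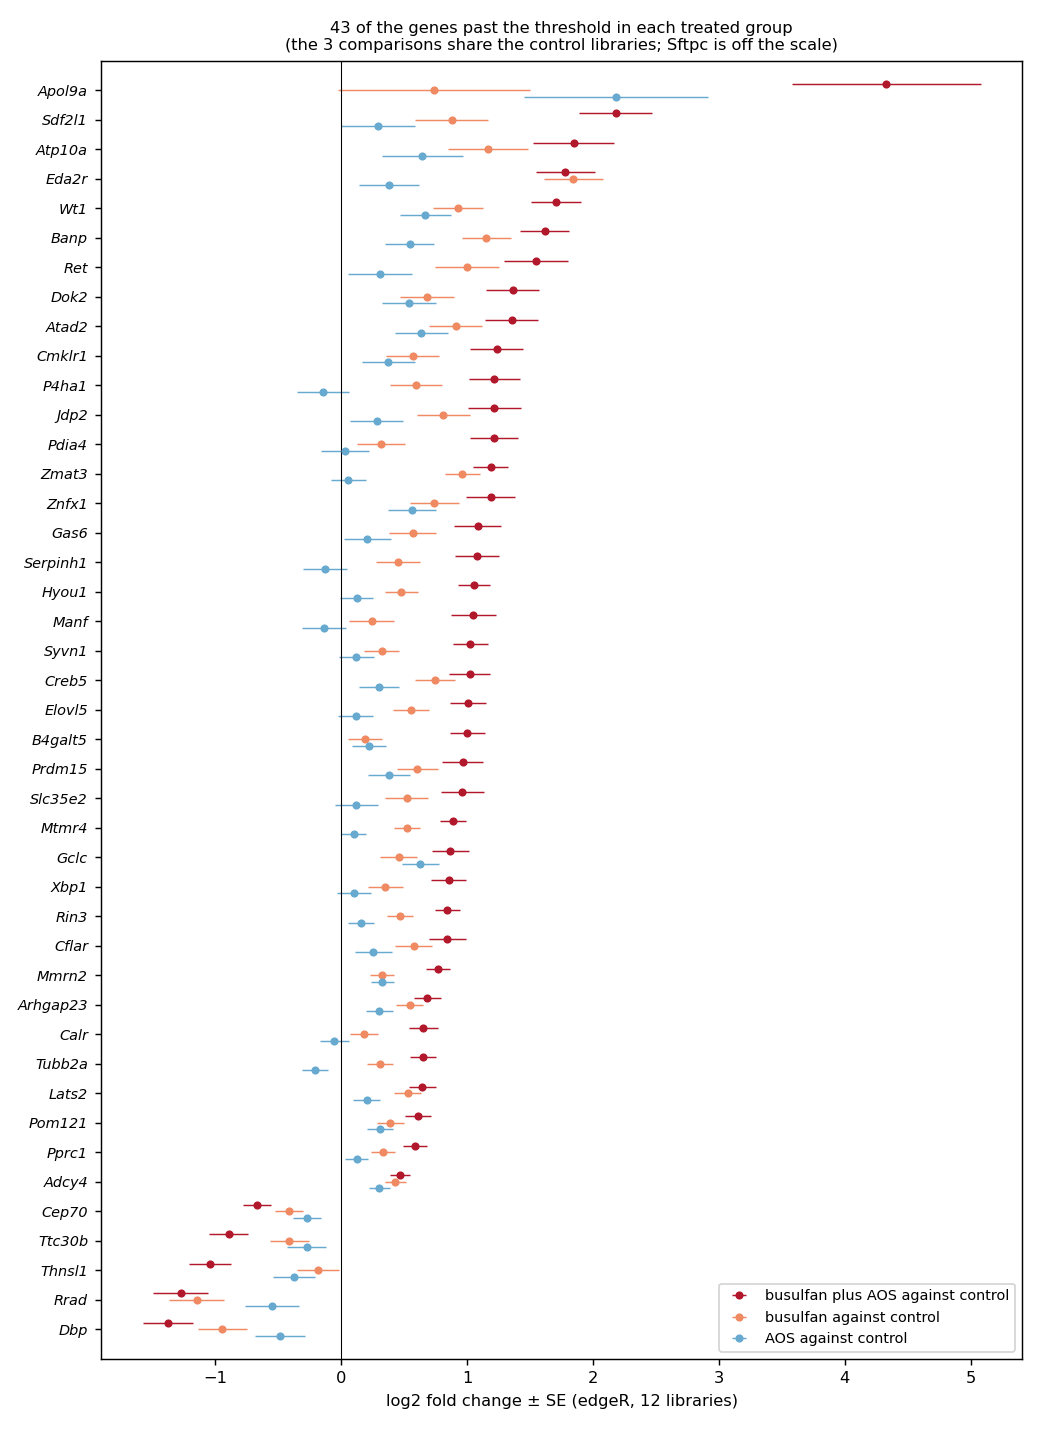
Log2 fold change over control ± SE (x axis) of 43 named genes past the threshold (rows), for busulfan plus AOS, busulfan and AOS. The 3 estimates of a gene share the control libraries. For Sdf2l1 they are 2.18, 0.88 and 0.29, and for Eda2r 1.78, 1.85 and 0.38.

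The count of 45 rested on single libraries. In edgeR it was 0 when busulfan plus AOS replicate 1 was left out (1597 higher and 1072 lower at an unadjusted p under 0.05). It was also 0 when control replicate 1 was left out (1485 and 1128). Leaving out busulfan plus AOS replicate 2 gave 8, and its replicate 3 gave 4. Leaving out control replicate 2 gave 1, and control replicate 3 gave 21. Of the libraries outside the comparison, AOS replicate 2 had the largest effect on the count. It is as rich in atrial markers as replicate 1 of busulfan plus AOS, and without it 2546 genes passed, 1257 higher and 1289 lower, with all 45 among them. The count was 24 and 11 without AOS replicates 1 and 3, and 21, 13 and 9 without busulfan replicates 1, 2 and 3. With the level of adipocyte markers as a covariate it was 0 (491 higher and 415 lower at an unadjusted p under 0.05), and with that of atrial markers 14. All 45 genes kept their direction in each of the 25 alternatives that tested them, and 1 of them was not tested under a filter at 5 CPM. They were picked by p and none overlapped between the groups, so leaving out 1 library could hardly turn their direction. Mtmr4, Zmat3, Wt1 and Hyou1 passed in 21 of the 25, Banp and Mmrn2 in 20, Eda2r and Rin3 in 19, Syvn1 in 18 and Sdf2l1 in 17. The adjusted p-values of these 10 ranged up to 0.415. Apol9a passed in 7, Calr in 8, Serpinh1 in 9, P4ha1 in 8, Rrad in 9 and Ttc30b in 4.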

How the data were processed

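RNA sequencing of 12 mouse heart libraries was deposited as a single table of genes. The authors deposited unscaled estimated counts for each gene. The FPKM values were deposited by the authors under a header that names only an expression value; they were taken as FPKM because counts divided by them give a constant gene length. Build mm10 is from the submitters' processing notes; which aligner, counter and annotation were used is not given in the sources used here. Deposited means of groups (8 columns) were not used.

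Groups and replicate numbers came from the sample titles. Estimated counts were rounded (a library total changed by at most 18.1) and fitted in edgeR 4.0.16 (R 4.3.3) with filterByExpr, TMM and a mean per group over 12 libraries, threshold 0.05 after Benjamini-Hochberg adjustment. With the genes tested, 4559 were left out. The biological coefficient of variation was 29.1%. The SE is the absolute log2 fold change over the square root of F. An exact permutation test of 3 against 3 libraries cannot go below p = 0.1 and was not used. Alternatives used DESeq2 1.42.0 and limma 3.58.1, with pseudocounts of 0.1 and 1 for log2 FPKM and genes of at least 0.5 FPKM. The edgeR script was tested on simulated data. Genes high in a single library had at least 20 CPM there, 30 times the other groups and 5 times the rest of their group. Depth limits precision most for genes of a few counts.

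The comparison, the 27 gene lists, the 16 marker lists and the promoter elements were chosen with earlier results of these data known. Named genes were those past the threshold with a symbol, up to 8 members of a list by p, any marker, and the 10 largest gains and losses in FPKM. ER genes that hold the promoter element were named after their values were seen. Coordinates and promoters are from RefSeq (GRCm38.p6, the assembly of mm10), matched on the Entrez identifier; 44 of the 45 genes had coordinates and 28 a promoter window.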

Additional observations from a re-analysis of the deposited data

How the results depend on the processing

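The number of genes past the threshold, 45, was 30 with DESeq2's size factors in edgeR, 66 with library totals and 63 with a filter at 5 CPM in 3 libraries. It was 2353 with DESeq2's own test (1245 higher and 1108 lower), 422 with only the 6 libraries compared (345 and 77) and 364 in limma-voom with library weights (238 and 126). It was 83 in limma on log2 FPKM with either pseudocount, 16 without a filter on low counts, 12 in limma-voom, 14 with the atrial covariate and 0 with the adipocyte covariate. Leaving out 1 library at a time gave 0 to 2546. The cause of these differences was not tested.

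Replicate numbers were also used as a block, although the labels do not say that they pair the samples. The replicate block gave 26 genes, 21 higher and 5 lower, 17 of them among the 45. Deviations of same-numbered busulfan plus AOS and control libraries correlated at 0.0968, 0.0773 and -0.154 across genes, and 3 of these 6 libraries correlated best with their own number.

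Of the named genes, 2 changed direction in any alternative. Myl7 was at -1.40 with the atrial and -4.83 with the adipocyte covariate, and Myl4 at -1.23 and -4.47. Both genes are in the atrial marker list that was averaged into the atrial covariate, so that fit adjusts each partly for itself. The size of a change cannot be given firmly for genes of a few counts, such as Sftpc. With 3 libraries a group, single libraries move every p-value.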
